A study of Mus with 12 samples.

Results

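The genes described here are 31 genes of B cell identity and B cell receptor signalling, read in whole blood of mice with a chemically induced, atopic dermatitis-like skin inflammation. They were listed by gene symbol and by no threshold on measured values, and each symbol matched 1 row of a table of 25247 genes. Blood was taken on day 30 from 12 female BALB/c mice, 3 in each of 4 groups, with 1 RNA-seq library per mouse. The mice were 6 weeks old when purchased. Solvent mice had only the acetone and olive oil vehicle. DNCB mice were sensitised on the shaved back and the right ear with 1% 2,4-dinitrochlorobenzene, a contact sensitiser. Both sites were then challenged repeatedly with a 0.5% solution. The scMSC and scivMSC mice had the same DNCB course plus human umbilical cord mesenchymal stem cells (MSC), 2000000 cells in 100 μL per dose. All of the dose went under the dorsal skin in scMSC mice, whereas scivMSC mice had 50 μL under the skin and 50 μL into the tail vein. Solvent mice received neither DNCB nor cells, and no group received cells without DNCB or only by vein.

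B cells sense antigen through a membrane immunoglobulin that has no signalling tail of its own. The signal is carried by the paired chains Cd79a and Cd79b, passed to the kinases Blk, Lyn and Syk, then through the adaptor Blnk to Btk and the phospholipase Plcg2. Coreceptors such as the complement receptor Cr2 lower the threshold, and receptors with inhibitory tails such as Cd22, Cd72 and Siglecg raise it. Ebf1 and Pax5 are the transcription factors that set and hold the B cell programme. Xbp1 and Mzb1 belong to the secretory machinery that is built up as a B cell becomes a plasma cell. In blood, most B cells are resting cells on their way between lymphoid organs.

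Levels are given as FPKM, which scales the fragments of a gene by its length and by the size of the whole library, so they can be compared between genes. Haemoglobin genes took 91.3% to 95.6% of the FPKM in every library, and total estimated counts ran from 52179764 to 65139421. The 31 genes together received between 1556 and 42631 counts per library, and since the counts favour multiples of 4, 4 counts were taken as about 1 fragment. A fold change was called when the edgeR adjusted p over all 5527 tested genes was under 0.05 and the change was over 2-fold, and only genes that reached 1 FPKM in 3 or more libraries were tested. Of the 31 genes, 21 were tested. Pax5, Cd72, Ly6d and Siglecg passed this filter only through Solvent libraries, and Fcrla, Tnfrsf13c and Fcrl1 only through Solvent and DNCB libraries, so lower values elsewhere were built into their entry. Ebf1, Bank1, Cr2, Vpreb3, Blnk, Ralgps2, Bcl11a, Pou2f2, Cd38 and Fcrl5 did not pass and were tested only in a fit without the filter. In whole blood, fewer B cells and less of these RNAs per B cell cannot be told apart.

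Solvent replicate 1 had the highest level of its group for all 31 genes, and Solvent replicate 3 the lowest for all 31. Across the 21 tested genes, replicate 1 exceeded replicate 3 by a median of 2.69-fold, against 1.66-fold over all tested genes. DNCB replicate 2 was the highest of its group for 28 of the 31. The scivMSC libraries held fewer genes with any counts, 12437 to 15793 against 16234 to 18493 in the other groups, and scivMSC replicate 2 had the fewest, the highest haemoglobin share and the lowest level of its group for 20 of the 31 genes. Calls and counts that were lost without one of these libraries are named with the result.

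The paired signalling chains of the antigen receptor had the highest levels of the 31 genes in Solvent blood, and both were lower after DNCB. Cd79a, on chromosome 7 (24897381 to 24902197 in the deposited table), stood at 55.4, 27.9 and 17.1 FPKM in the Solvent libraries and at 6.06, 13.8 and 5.53 FPKM in the DNCB libraries. It read 6.77, 5.83 and 6.72 FPKM in scMSC and 3.49, 1.62 and 2.67 FPKM in scivMSC. The DNCB and scMSC libraries overlapped, every Solvent library lay above them, and every scivMSC library lay below them. Cd79b, on chromosome 11 (106311341 to 106314762), had 39.9, 19.6 and 11.8 FPKM in Solvent and 3.99, 10.8 and 3.57 FPKM in DNCB. In scMSC it had 4.15, 3.45 and 4.87 FPKM and in scivMSC 1.78, 0.677 and 2.71 FPKM, the same order of groups as for Cd79a. Vpreb3, which assists receptor assembly in developing B cells, was far lower, at a mean of 1.67 FPKM ± 1.08 (SD, n = 3) in Solvent and 0.335 FPKM ± 0.159 (SD, n = 3) in DNCB.

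**Figure D1:**
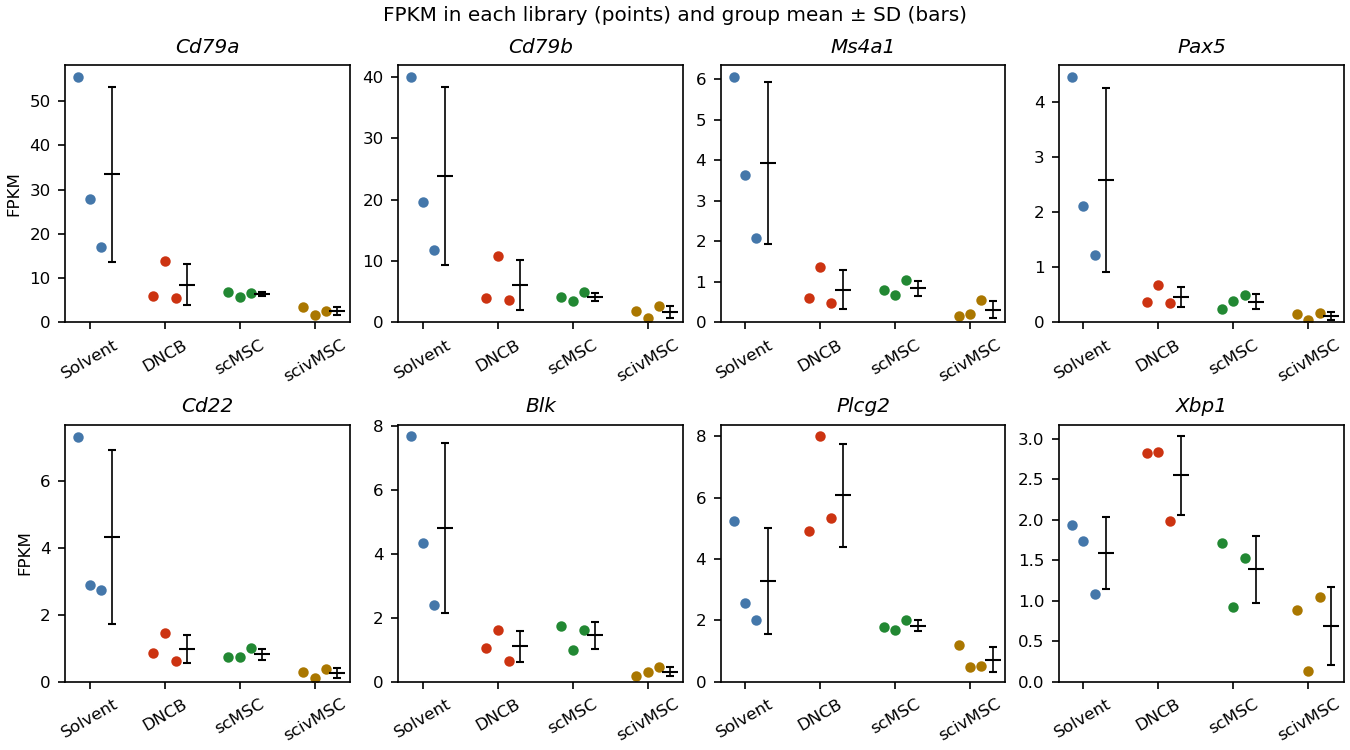
FPKM (vertical axis, linear from 0, a separate scale per gene) of 8 genes in each of the 12 libraries, grouped by treatment, with the group mean ± SD (n = 3) as black bars. Cd79a, Cd79b, Ms4a1, Pax5, Cd22 and Blk are highest in the Solvent libraries and lowest in scivMSC, whereas Plcg2 and Xbp1 have their highest group mean in DNCB.

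Among the 21 tested genes, 16 fell and 0 rose in DNCB against Solvent. Over all 5527 tested genes, 4.87% were called lower and 15.6% higher. All DNCB libraries lay under all Solvent libraries for 16 of the 21 genes and above them for 1, Xbp1, beside 16.5% and 25.0% of all tested genes. At an unadjusted p under 0.05 the count of higher genes was 1, and DESeq2 and limma called 0 higher. The median log2 fold change of the 21 genes was -1.96, against 0.06 over all tested genes. Cd79a fell by 1.98 on the log2 scale (SE 0.45, edgeR adjusted p = 0.00498), with every DNCB library under every Solvent library. Cd79b fell by 1.96 (SE 0.54, edgeR adjusted p = 0.0151), a call lost without Solvent replicate 1, DNCB replicate 1 or DNCB replicate 3, where the adjusted p reached up to 0.0978. The count of genes that fell was 6 of 17 tested without Solvent replicate 1, 10 of 17 without Solvent replicate 2, 9 of 21 without DNCB replicate 1 and 8 of 21 without DNCB replicate 3. Pax5, Cd72, Ly6d and Siglecg were not tested in fits that left out a Solvent library, since they no longer passed the filter.

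The tested transcription factors, Pax5, Spib and Pou2af1, all fell in this comparison, beside 4.87% of all tested genes. Pax5, on chromosome 4 (44524757 to 44710487), had 4.45, 2.11 and 1.22 FPKM in Solvent and 0.368, 0.673 and 0.346 FPKM in DNCB. Its levels were 0.235, 0.395 and 0.506 FPKM in scMSC and 0.156, 0.0370 and 0.162 FPKM in scivMSC, so the Solvent libraries stood apart and the DNCB and scMSC libraries overlapped. Pax5 fell by 2.48 on the log2 scale in DNCB against Solvent (SE 0.56, edgeR adjusted p = 0.00423), the largest fall among the 16. It passed the filter only through Solvent libraries, so a lower level elsewhere was built into its entry. Spib, an Ets family factor of B cells and plasmacytoid dendritic cells, fell by 2.34 (SE 0.47, edgeR adjusted p = 0.00185). Pou2af1, the coactivator of octamer-binding factors on immunoglobulin promoters, fell by 1.68 (SE 0.49, edgeR adjusted p = 0.0223), a call lost without Solvent replicate 1, DNCB replicate 1 or DNCB replicate 3 at an adjusted p of up to 0.128. Ebf1 was low throughout, at 0.615, 0.341 and 0.227 FPKM in Solvent, 0.0337, 0.0954 and 0.0713 in DNCB, 0.0751, 0.0582 and 0.0719 in scMSC and 0, 0.00686 and 0.0598 in scivMSC. Its DNCB and scMSC libraries all lay under the Solvent ones. Pou2f2 and Bcl11a, factors that other blood cells also use, had Solvent means of 0.967 and 0.256 FPKM and were not tested.

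Coreceptors and activating receptors were lower after DNCB, with Cd37 as the exception among those tested. Ms4a1, which encodes CD20, had 6.04, 3.64 and 2.09 FPKM in Solvent and 0.591, 1.37 and 0.469 FPKM in DNCB. The scMSC libraries held 0.804, 0.677 and 1.04 FPKM and the scivMSC libraries 0.166, 0.214 and 0.561 FPKM of Ms4a1, so that scivMSC overlapped DNCB but not scMSC. Ms4a1 fell by 2.27 on the log2 scale after DNCB (SE 0.53, edgeR adjusted p = 0.00537). Tnfrsf13c, the receptor for the survival factor BAFF, read 4.03, 2.18 and 2.02 FPKM in Solvent, 0.656, 1.32 and 0.174 in DNCB, 0.628, 0.505 and 0.868 in scMSC and 0.285, 0.0656 and 0.286 in scivMSC. It fell by 1.92 after DNCB (SE 0.65, edgeR adjusted p = 0.0440), and this call was lost without any of the Solvent or scMSC libraries or DNCB replicates 1 or 3, at an adjusted p of up to 0.154. Fcmr, the Fc receptor for IgM, dropped from a mean of 11.7 FPKM to 2.75 FPKM, by 2.08 on the log2 scale (SE 0.49, edgeR adjusted p = 0.00552). Ly6d, a surface marker of B-committed progenitors that is also expressed by other cells, had 3.32, 2.06 and 1.39 FPKM in Solvent, 0.720, 0.479 and 0.0804 in DNCB and 0.531, 0.538 and 0.496 in scMSC. It fell by 2.36 after DNCB (SE 0.72, edgeR adjusted p = 0.0300), a call lost without DNCB replicate 2 or 3 at an adjusted p of up to 0.0943. Cd37, a tetraspanin of B cells and other leukocytes, did not share this, with 15.9, 9.54 and 6.52 FPKM in Solvent and 13.3, 17.7 and 7.62 FPKM in DNCB, and it was not called (log2 fold change 0.27, SE 0.42).

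The inhibitory and Fc receptor-like group fell in 5 of its 6 tested members, Cd22, Cd72, Siglecg, Btla and Fcrla, beside 4.87% of all tested genes. Without DNCB replicate 1 or 3 Siglecg, Btla and Fcrla lost their calls, which left 2 of the 6, and Btla and Fcrla also lost theirs without Solvent replicate 1. Cd22, a sialic acid-binding inhibitor of the antigen receptor, had 7.31, 2.88 and 2.74 FPKM in Solvent and 0.857, 1.44 and 0.615 FPKM in DNCB, followed by 0.724, 0.725 and 1.00 in scMSC and 0.280, 0.113 and 0.386 in scivMSC. Its groups were separated except for DNCB and scMSC, and the fall after DNCB was 2.14 on the log2 scale (SE 0.50, edgeR adjusted p = 0.00552). Cd72 fell by 2.26, Fcrla by 1.98, Btla by 1.88 and Siglecg by 1.62 on the same scale, the last 2 being receptors that also occur on other lymphocytes or myeloid cells. Fcrla shares its strand and part of its span with a predicted gene, so reads of the pair may not be separable. Fcrl1, a receptor-like activator found on B cells, was the tested member that was not called, with a negative log2 fold change of -0.78 (SE 0.48). It had 3.09, 1.3 and 1.06 FPKM in Solvent and 0.988, 1.37 and 0.814 FPKM in DNCB, groups that overlapped.

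The intracellular signalling genes split. Blk, a Src family kinase used mainly by B cells, had 7.67, 4.34 and 2.40 FPKM in Solvent and 1.05, 1.62 and 0.648 FPKM in DNCB. It then read 1.74, 0.977 and 1.63 FPKM in scMSC and 0.186, 0.287 and 0.471 FPKM in scivMSC, and fell by 2.11 on the log2 scale after DNCB (SE 0.51, edgeR adjusted p = 0.00655). Plcg2, on chromosome 8 (117498291 to 117635142), had 5.24, 2.56 and 2.01 FPKM in Solvent against 4.91, 8.0 and 5.32 FPKM in DNCB, groups that overlapped. Btk had 3.68, 1.84 and 1.53 FPKM in Solvent against 3.05, 3.95 and 2.80 FPKM in DNCB. Neither was called (Plcg2 log2 fold change 0.89, SE 0.42, edgeR adjusted p = 0.145, and Btk 0.48, SE 0.39). Without Solvent replicate 1, Plcg2 was called higher, at 1.42 and an edgeR adjusted p of 0.0300. Plcg2 and Btk are also used by myeloid cells. Bank1, Blnk and Ralgps2 did not pass the filter, and in the fit without it Bank1 (-2.20) and Ralgps2 (-1.76) fell after DNCB while Blnk (-1.94, edgeR adjusted p = 0.0512) missed the threshold.

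The secretory genes went apart as well. Mzb1, a chaperone cofactor of marginal zone B cells and plasma cells, had 5.78, 4.28 and 2.14 FPKM in Solvent and 0.979, 1.82 and 0.385 FPKM in DNCB. It fell by 1.92 on the log2 scale (SE 0.63, edgeR adjusted p = 0.0389), a call lost without Solvent replicate 1 or 2, DNCB replicate 1 or 3, or scMSC replicate 3, at an adjusted p of up to 0.158. Xbp1, the transcription factor of the unfolded protein response, had 1.94, 1.74 and 1.08 FPKM in Solvent and 2.82, 2.83 and 1.99 FPKM in DNCB. Every DNCB library was above every Solvent library for Xbp1, yet the change of 0.68 (SE 0.53) was not called.

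**Figure D2:**
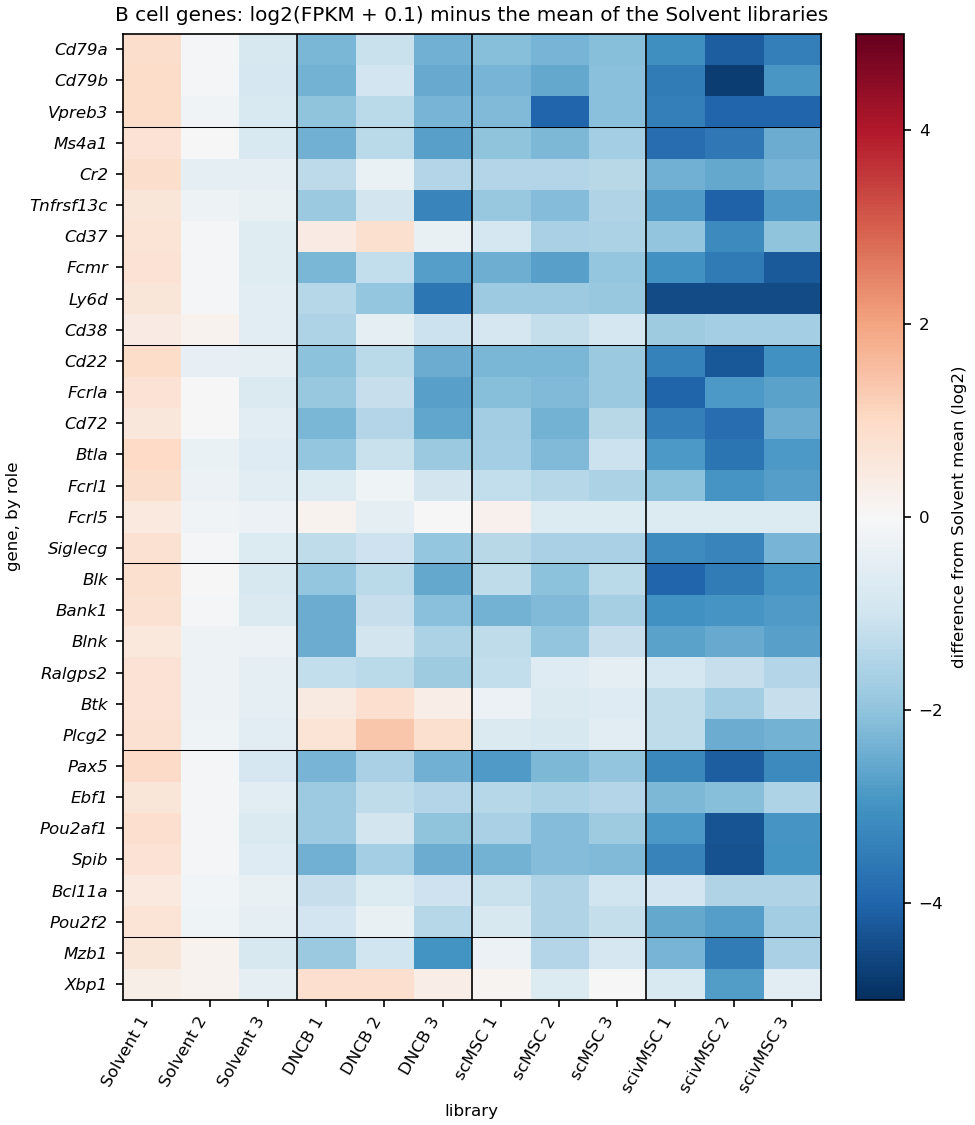
Log2(FPKM + 0.1) of each of the 31 genes (rows, ordered by role and separated by thin lines) in each library (columns, groups separated by vertical lines), minus the mean of the 3 Solvent libraries. Blue is below and red above that mean. Most rows are blue in DNCB and scMSC and darker in scivMSC, while Cd37, Btk, Plcg2 and Xbp1 are red or pale in DNCB, and Solvent replicate 1 is red in every row.

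In the fit without the filter, over all 25247 genes, 15 of the 31 genes fell and 0 rose in DNCB against Solvent, where 1.26% of all genes were called lower and 3.41% higher. Without the filter and without Solvent replicate 1 the count was 7, without DNCB replicate 1 it was 8, and without DNCB replicate 3 it was 6. The genes that fell without the filter included 2 of the 10 that the filter had removed, Bank1 and Ralgps2. Cr2 (-1.36), Cd38 (-1.27), Pou2f2 (-1.07), Bcl11a (-1.65), Ebf1 (-2.55) and Vpreb3 (-2.25) had negative log2 fold changes that missed the threshold. Fcrl5 held at most 0.124 FPKM in any library, too little to compare.

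Injection of MSC under the skin addressed whether the DNCB pattern was altered by cell treatment. None of the 16 genes that fell after DNCB was called in scMSC against DNCB. In that comparison 3 of the 21 tested genes fell, Plcg2, Cd37 and Btk, and 0 rose, where 24.9% of all tested genes were called lower and 1.27% higher. Plcg2 dropped to 1.79, 1.67 and 2.02 FPKM, by 1.74 on the log2 scale (SE 0.43, edgeR adjusted p = 0.00664). Cd37 dropped to 5.42, 3.16 and 3.31 FPKM, by 1.71 (SE 0.43, edgeR adjusted p = 0.00737), and without DNCB replicate 2 the adjusted p was 0.0520. Btk, at 1.75, 1.28 and 1.37 FPKM, fell by 1.16 (SE 0.39, edgeR adjusted p = 0.0360), a call lost without any 1 of the 3 DNCB or 3 scMSC libraries. Without DNCB replicate 2 only Plcg2 was called, a count of 1.

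None of the 11 tested genes whose use is mainly restricted to B cells was called in scMSC against DNCB, and none had an unadjusted p under 0.05. Under another scaling of the libraries, the trimmed mean of M values (TMM), edgeR also called 0 of the 11, as did limma, whereas DESeq2 called 1 higher, Blk. Cd79a changed by -0.41 on the log2 scale, with a 95% interval from -1.27 to 0.46, Ms4a1 by 0.05 (-0.95 to 1.04), Pax5 by -0.30 (-1.34 to 0.74) and Cd22 by -0.26 (-1.20 to 0.68). These intervals reach past a 2-fold change, so the data do not show that the levels were alike. Xbp1, at 1.71, 0.924 and 1.52 FPKM in scMSC, lay under all DNCB libraries without being called (log2 fold change -0.89, SE 0.53). Mzb1, at 3.05, 1.29 and 2.03 FPKM in scMSC, had the highest positive value of the 21, 0.98 (SE 0.62, edgeR adjusted p = 0.256), and its groups overlapped. Under TMM scaling Mzb1 was called higher, at 1.71 (edgeR adjusted p = 0.0183), and Plcg2 lower, 1 gene each of the 21, where TMM called 8.74% of all tested genes higher and 12.3% lower. DESeq2 called Mzb1 higher too.

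The library scaling mattered for every comparison with an MSC group. With total counts as the scale, that of the deposited FPKM, the median log2 fold change of all tested genes was -0.63 in scMSC against DNCB, -1.53 in scivMSC against DNCB and -0.87 in scivMSC against scMSC, and it was 0.06, 0.04 and -0.01 with TMM. Relative to the median of all genes, the 21 B cell genes sat at 0.33, -0.30 and -0.56 in these comparisons, and at 0.40, -0.23 and -0.59 with TMM. In DNCB against Solvent the same difference was -2.02 on either scale, and there TMM also called 16 of the 21 lower and 0 higher, beside 11.5% and 16.1% of all tested genes.

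**Figure D3:**
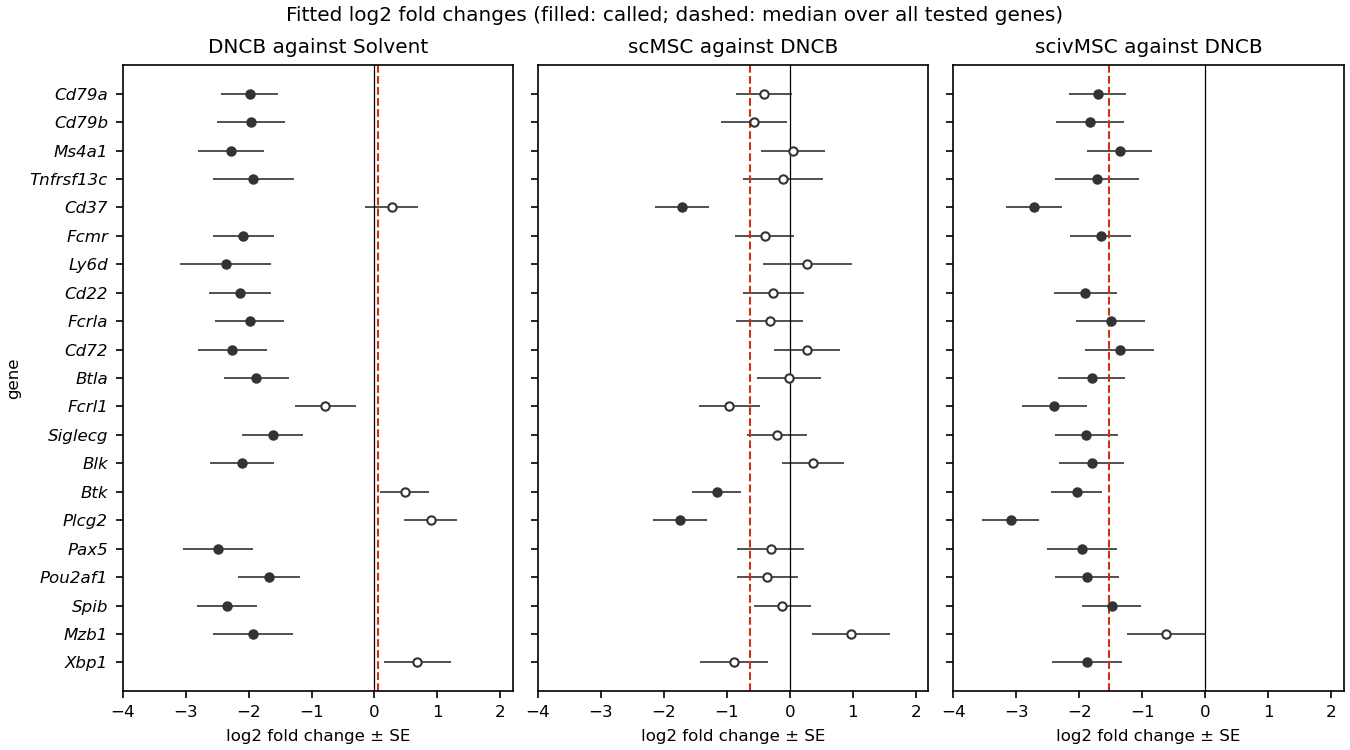
Fitted log2 fold change ± SE (horizontal axis) of the tested B cell genes in 3 comparisons, with filled points for called genes, open points for the others and a dashed line at the median of all 5527 tested genes. In DNCB against Solvent 16 genes are filled and left of the line, in scMSC against DNCB 3 are filled, and in scivMSC against DNCB nearly all are filled but cluster around the line. Ly6d is left out of the last panel because it had no counts in scivMSC.

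With the dose divided between skin and vein, nearly all of the genes were lower still on the FPKM scale. In scivMSC against DNCB 20 of the 21 tested genes fell, every one but Mzb1, and 0 rose, where 62.0% of all tested genes were called lower and 1.43% higher. Cd79a fell by 1.71 on the log2 scale (SE 0.45, edgeR adjusted p = 0.0036), Pax5 by 1.96 (SE 0.56, edgeR adjusted p = 0.00566), Cd22 by 1.90 and Blk by 1.80. Plcg2, at 1.18, 0.463 and 0.509 FPKM, had the largest fall that could be fitted, 3.09 (SE 0.45, edgeR adjusted p = 3.19e-05), followed by Cd37 at 2.47, 1.02 and 2.37 FPKM with a fall of 2.71. Xbp1 had 0.881, 0.135 and 1.04 FPKM and fell by 1.88 (SE 0.55, edgeR adjusted p = 0.00685). Mzb1, at 0.669, 0.242 and 1.16 FPKM, was not called (-0.61, SE 0.63). The count of 20 became 13 without DNCB replicate 2, where Cd79b, Ms4a1, Fcrla, Cd72, Tnfrsf13c, Spib and Fcmr lost their calls, and it was 17 without scivMSC replicate 2. With TMM scaling 3 of the 21 were called lower, Plcg2, Cd37 and Ly6d, and none of the 11 B cell-restricted genes was, where TMM called 18.9% of all tested genes lower. DESeq2 called 3 and limma 7 of the 21 lower, and neither tool called any of the 21 higher in a comparison of scivMSC, where edgeR also had 0 higher at an unadjusted p under 0.05.

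Ly6d had 0 counts in all 3 scivMSC libraries. A limit of 12 counts per library, about 3 fragments, was taken as what 0 allows. With it, Ly6d was at least 7.99-fold lower than the Solvent mean, 1.88-fold lower than the scMSC mean and 1.55-fold lower than the DNCB mean. DNCB replicate 3 itself had 4 counts, fewer than this limit, so the bound does not hold against that library. With Ly6d at these limits the median log2 fold change of the 21 genes was -1.80 in scivMSC against DNCB, beside -1.53 for all tested genes. Vpreb3 had 3, 0 and 0 counts there and was at least 6.86-fold lower than in Solvent. Both limits cover counting error only.

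The direct comparison of the routes, scivMSC against scMSC, found 13 of the 21 genes lower and 0 higher, where 30.4% of all tested genes were called lower and 0.344% higher. Blk had the largest fall that could be fitted, 2.18 on the log2 scale (SE 0.52, edgeR adjusted p = 0.0118), with all scivMSC libraries under all scMSC libraries. The groups were separated, scivMSC below scMSC, for 20 of the 21 genes and for 46.7% of all tested genes, Xbp1 being the gene that overlapped. Cd79a fell by 1.3 (SE 0.45, edgeR adjusted p = 0.0374), and this call did not survive the omission of Solvent replicate 2, any scMSC library or scivMSC replicates 2 or 3. The count of 13 was 8 of 17 tested without Solvent replicate 1 and 5 of 17 without Solvent replicate 2. Pax5, Cd72, Ly6d and Siglecg, which are among the 13, were not tested in those fits. The count dropped to 2, 8, 2, 2 and 8 of the 21 without scMSC replicates 1, 2 and 3, and scivMSC replicates 2 and 3, respectively. It was 1, Ly6d, with TMM scaling, which called 4.92% of all tested genes lower.

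Set against Solvent rather than DNCB, both treated groups remained low. In scMSC against Solvent 6 of the 21 genes fell, Cd79a, Cd79b, Pax5, Cd22, Spib and Fcmr, and 0 rose, where 0.326% of all tested genes were called lower and 0.326% higher. Pax5 fell by 2.78 on the log2 scale (SE 0.56, edgeR adjusted p = 0.0362) and Cd79a by 2.39 (SE 0.46, edgeR adjusted p = 0.0293). The scMSC libraries lay under all Solvent libraries for 17 of the 21 genes, against 40.6% of all tested genes. The count of 6 was 0 without Solvent replicate 1, Solvent replicate 2 or any scMSC library, 16 without scivMSC replicate 1, 17 without scivMSC replicate 2 and 13 with TMM scaling, which called 1.21% of all tested genes lower. Pax5 and Cd79a both lost their calls without any 1 of the scMSC libraries, and Cd79a also without Solvent replicate 1 or 2.

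In scivMSC against Solvent 20 of the 21 genes fell, all but Xbp1, and 0 rose, beside 59.2% and 2.59% of all tested genes. All 21 had every scivMSC library under every Solvent library, as did 62.6% of all tested genes. Cd79a fell by 3.69 on the log2 scale (SE 0.49, edgeR adjusted p = 9.91e-05), Pax5 by 4.44 (SE 0.61, edgeR adjusted p = 0.000129) and Ms4a1 by 3.63 (SE 0.56, edgeR adjusted p = 0.00017). The median of the 21 was -3.63, or -3.62 with Ly6d at its limit, against -1.47 for all tested genes. With TMM scaling 16 of the 21 fell, including all 11 tested B cell-restricted genes, where 13.4% of all tested genes were called lower. The comparisons with Solvent share the Solvent libraries, and those with DNCB share the DNCB libraries.

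All 31 genes could be counted for the treated groups in the fit without the filter. In scMSC against DNCB 2 fell, Plcg2 and Cd37, where 4.65% of all 25247 genes were called lower. In scivMSC against DNCB 25 fell, beside 22.9% of all genes, and in scivMSC against scMSC 14 fell, beside 8.68%. Set against Solvent, 10 fell in scMSC, beside 0.301%, and 30 in scivMSC, beside 28.2%. Single libraries decided several of these counts. The 25 became 13 without DNCB replicate 2, and the 14 became 9 without DNCB replicate 1, 2 without scMSC replicate 1, 3 with scMSC replicate 3 left out and 4 with scivMSC replicate 2 left out. The 10 became 5 without Solvent replicate 1 or scMSC replicate 2, 0 without scMSC replicate 1, and rose to 21 when scivMSC replicate 1 was left out and to 23 for scivMSC replicate 2. The 2 became 0 without DNCB replicate 2 and 1 without scMSC replicate 1. With TMM in place of total counts, this fit called 20 of the 31 lower (3.06% of all genes) and 1, Plcg2, higher (5.78%) in DNCB against Solvent. It called Plcg2 and Cd37 lower (3.87%) and Mzb1 and Ralgps2 higher (2.08%) in scMSC against DNCB. In scivMSC against DNCB it called 5 lower (7.83%) and 1, Ralgps2, higher (6.02%), and in scivMSC against scMSC it called 3 lower (2.86%), Blk, Cr2 and Ly6d. Against Solvent it called 12 lower in scMSC (0.424%) and 22 lower in scivMSC (6.59%).

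**Figure D4:**
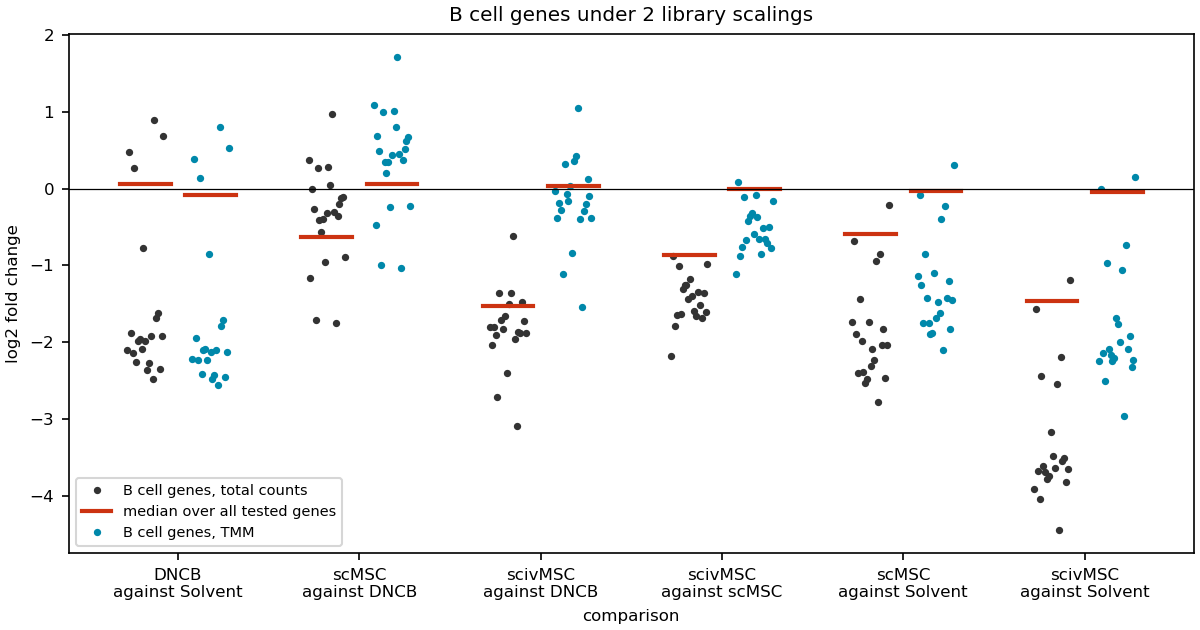
Fitted log2 fold changes (vertical axis) of the tested B cell genes (points) in the 6 comparisons, with libraries scaled by total counts (grey) or by TMM (blue), and the median of all tested genes as red bars. In DNCB against Solvent most points lie about 2 units under the bar on either scale, whereas in scivMSC against DNCB they lie around the bar on either scale. Ly6d is left out where scivMSC is compared.

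Levels relative to Cd79a, taken within each library, do not depend on the library scale, and are given as a description with no test. Cd79b stood at 69.3% to 72.1% of Cd79a in Solvent, 64.6% to 78.0% in DNCB, 59.3% to 72.5% in scMSC and 41.9% to 101.4% in scivMSC, groups that overlapped throughout. Cd22 kept to 10.3% to 16.1% of Cd79a in Solvent and 10.5% to 14.1% in DNCB. Since Cd79a itself fell after DNCB, a gene that did not fall has a higher ratio in DNCB by construction, as 81.7% of all other tested genes had without overlap and 0.235% had a lower one. Among the 20 other tested B cell genes 6 had a higher ratio in DNCB without overlap, Pou2af1, Cd37, Fcrl1, Btk, Plcg2 and Xbp1, and 2 a lower one, Ms4a1 and Pax5. Plcg2 went from 9.45%, 9.20% and 11.8% of Cd79a in Solvent to 81.1%, 58.0% and 96.3% in DNCB, and stood at 26.5%, 28.7% and 30.1% in scMSC, under every DNCB library and above every Solvent library. Cd37 was at 28.7% to 38.2% in Solvent and 128% to 219% in DNCB. Ms4a1 was at 10.9% to 13.1% in Solvent, 8.48% to 9.90% in DNCB and 11.6% to 15.5% in scMSC, with DNCB under both without overlap.

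Mzb1 and Ralgps2 had ratios that overlapped between Solvent and DNCB but were higher in an MSC group than in DNCB. Against Solvent, Cd37, Btk, Plcg2, Cd38 and Xbp1 also had higher ratios in both MSC groups without overlap, and Vpreb3 had lower ones. Since Cd79a was lower in both MSC groups than in Solvent, a gene that fell less has a higher ratio there by construction. The share of all tested genes was not counted for those comparisons. It was also not counted for the ratios in scMSC against DNCB or scivMSC against scMSC, here or above. Mzb1 was at 10.4%, 15.4% and 12.6% of Cd79a in Solvent and 16.2%, 13.2% and 6.97% in DNCB, but at 45.0%, 22.2% and 30.2% in scMSC, above both without overlap. In scivMSC it spread from 15% to 43.3%. Ralgps2, a guanine nucleotide exchange factor for Ral proteins, was at 3.43%, 3.37% and 4.62% in Solvent, 6.90%, 2.82% and 4.62% in DNCB, 6.35%, 11.9% and 11.8% in scMSC and 16.4%, 27.6% and 13% in scivMSC. Its scivMSC libraries were above those of all other groups. Against DNCB, Cd37, Fcrl1, Ly6d and Plcg2 had a lower ratio in scivMSC without overlap, 4 of the 20 tested ratios beside 24.0% of all other tested genes, and 0 of the 20 had a higher one, beside 24.1%. The ratio of Ly6d there rests on 0 counts in every scivMSC library. Of the 10 untested genes Ralgps2 had a higher ratio there and Cr2 a lower one. Vpreb3 and Fcrl5 also read lower, but on 3, 0 and 0 counts and on 0 counts in scivMSC, too few to compare with DNCB. The FPKM of Ralgps2 was 0.573, 0.445 and 0.348 in scivMSC and 0.418, 0.389 and 0.255 in DNCB, with overlap.

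**Figure D5:**
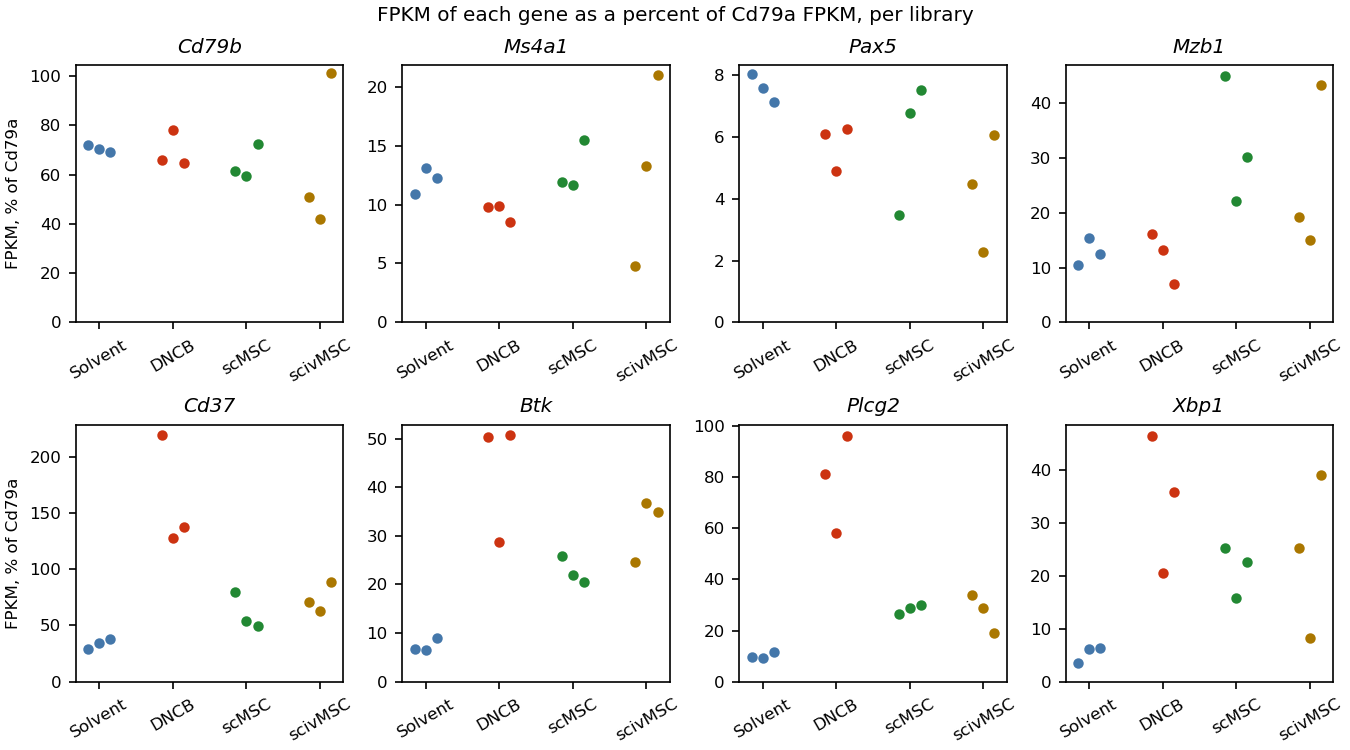
FPKM of 8 genes as a percent of Cd79a FPKM in the same library (vertical axis, linear from 0, a separate scale per gene), each point a library. Cd79b overlaps between all groups, Ms4a1 is lower in DNCB than in Solvent and scMSC, Cd37, Btk, Plcg2 and Xbp1 are higher in DNCB than in Solvent, and Mzb1 is higher in scMSC than in Solvent and DNCB.

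Other genes of the pathway were taken from a separate list of 31, of which 27 were tested. In DNCB against Solvent 8 fell, beside 4.87% of all tested genes, among them Rasgrp3, Ikzf3, Hvcn1, the invariant chain Cd74, and the heavy chain constant genes Ighm and Ighd. A further 7 rose, beside 15.6% of all tested genes, namely Lyn, Syk, Vav3, Pik3cg, Bcl10, Dok3 and Grb2, which encode signalling proteins shared with myeloid cells. Ighm, the constant region of IgM, had a mean of 58.7 FPKM in Solvent, 15.5 in DNCB, 14.3 in scMSC and 6.43 in scivMSC. Syk, the kinase recruited to the phosphorylated Cd79a and Cd79b tails, had means of 4.63, 12.1, 4.03 and 2.22 FPKM in the same order of groups, so it rose after DNCB as its receptor chains fell. Against DNCB, 11 of the 27 fell and 1, Rasgrp3, rose in scMSC, beside 24.9% and 1.27% of all tested genes. In scivMSC 23 fell and 1, Rasgrp3 again, rose, beside 62.0% and 1.43%. With TMM scaling the counts were 5 lower and 3 higher in scMSC, beside 12.3% and 8.74% of all tested genes, and 9 lower and 3 higher in scivMSC, beside 18.9% and 20.6%.

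In DNCB against Solvent the summed markers of T and NK cells were lower, as were most of the B cell genes. Those of neutrophils, monocytes and platelets averaged higher. Single markers could differ from their sum, as the monocyte marker Cx3cr1 went from a mean of 0.681 to 0.303 FPKM. Against DNCB, the neutrophil and monocyte sums were lower in both MSC groups. The T cell sum averaged 30.9 FPKM in DNCB, 40.7 in scMSC and 16.1 in scivMSC. Of 10 T cell markers, 9 fell in DNCB against Solvent, beside 4.87% of all tested genes. The 10 markers summed to 64.4 to 108 FPKM in Solvent and 24.1 to 34.7 in DNCB, whereas the 16 B cell-restricted genes summed to 51.0 to 158 and 15.4 to 40.3 FPKM. The B cell sum per unit of T cell sum was 0.793 to 1.47 in Solvent, 0.538 to 1.19 in DNCB, 0.439 to 0.512 in scMSC and 0.348 to 0.562 in scivMSC. Under TMM 9 of the 10 T cell markers were called higher in scMSC against DNCB, beside 8.74% of all tested genes. None of the 11 tested B cell-restricted genes was called higher there, whereas DESeq2 called 1 of them, Blk, higher. On the FPKM scale the T cell sums of these groups overlapped, at 24.1 to 34.7 in DNCB and 33.1 to 46.0 in scMSC. All 10 neutrophil markers rose in DNCB, beside 15.6% of all tested genes. Their sum went from 220 to 445 FPKM in Solvent to 6975 to 10927 FPKM, and was lower again in scMSC (576 to 718 FPKM) and scivMSC (246 to 736 FPKM). Of 5 tested NK cell markers 3 fell in DNCB, beside 4.87% of all tested genes, and the NK cell sum went from 32.1 to 40.3 FPKM to 11.7 to 17.9 FPKM. Of 8 platelet markers 5 rose, beside 15.6% of all tested genes, and the platelet sum went from 374 to 594 FPKM to 593 to 806 FPKM. Of 7 tested monocyte markers, 4 rose in DNCB, beside 15.6% of all tested genes, and the monocyte sum went from 60.7 to 181 FPKM to 424 to 680 FPKM. Most of the monocyte sum was Lyz2 in every group, with a mean of 483 of 532 FPKM in DNCB. Lyz2 averaged 77.6 of 92.9 FPKM in scMSC and 82.5 of 92.7 FPKM in scivMSC, so it largely set the changes of this sum. The part of neutrophils in the level of Lyz2 was not tested. The counts of called markers of all these cell types are given for fits with all libraries only. Plcg2, Btk, Cd37 and Xbp1 are also known from myeloid cells, and the part of those cells in their levels was not tested.

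Among 8 plasma cell markers only Jchain, Tnfrsf13b and Txndc5 were tested. Sdc1, the defining surface marker, averaged 0.222 FPKM in Solvent, 0.0652 in DNCB and 0.0901 in scMSC. Of the other untested markers, Prdm1, Tnfrsf17 and Irf4 had higher means in scMSC than in DNCB, and Slamf7 had a lower one. Jchain, the joining chain of secreted IgM and IgA, was called higher in scMSC against DNCB, from a mean of 2.61 to 9.12 FPKM, beside 1.27% of all tested genes. Tnfrsf13b, a receptor for BAFF and APRIL, went the other way, from 1.03 to 1.64 FPKM in DNCB to 0.509 to 0.664 FPKM in scMSC, and was not called. Txndc5 had 0.685 to 1.67 FPKM in DNCB and 1.46 to 1.59 FPKM in scMSC and was not called, whereas TMM called both Jchain and Txndc5 higher. Of 8 plasmacytoid dendritic cell markers only Bst2 was tested, and Siglech averaged at most 0.0283 FPKM in any group. The summed level was highest in Solvent, at 6.06 to 7.84 FPKM, and lowest in scivMSC, at 1.00 to 3.06 FPKM. Most of this sum was Bst2, with a mean of 5.71 of 6.82 FPKM in Solvent. Runx2 (mean 0.232 to 0.636 FPKM), Siglech and Klk1 averaged higher in DNCB than in Solvent, and the other markers, Bst2 included, averaged lower. The part of these cells in the level of Spib was not tested.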

How the data were processed

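Total RNA of whole blood was sequenced on an Illumina platform. The authors deposited 1 table with an estimated count and an FPKM value per gene and library. The submitters' notes name HISAT2 2.0, StringTie 1.3.0, Bowtie 0.12.2 and build mm8 without giving roles, although 29 of the 31 genes start within 1 kb of their RefSeq start in GRCm38, and the annotation and strand setting are not given in the sources used here. The deposited estimated counts are whole numbers that favour multiples of 4 (29.0% of the values from 1 to 12 are 4). They were tested with edgeR 4.0.16 (R 4.3.3, quasi-likelihood, total-count scaling, all 12 libraries, 4 group means, Benjamini-Hochberg adjustment). Genes needed an FPKM of at least 1 in 3 libraries. A standard error was derived from the fitted change and its F statistic, and a 95% interval used the normal quantile. The test was checked on simulated data.

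Alternatives were TMM, haemoglobin left out, DESeq2 1.42.0 and limma 3.58.1 on log2(FPKM + 1) or log2(FPKM + 0.1) of the deposited FPKM, other filters, fewer groups, counts divided by 4, a replicate block and each library left out. The unfiltered TMM and unfiltered left-out fits, and the fit without Solvent replicate 1 and DNCB replicate 2, were added after seeing the data. Gene and marker lists and the rule for named genes were chosen with earlier results of these data known. The rule takes 10 genes of central roles and, per comparison, the called genes with the largest rise and fall. Other genes named were chosen after their values were seen. Sequences were not used here, and some genes of the separate pathway list are not reported here. Intervals and count limits cover counting error or replicate spread only, and depth ran from 52179764 to 65139421 counts per library.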

Additional observations from a re-analysis of the deposited data

How the results depend on the processing

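The counts of called genes below are of the 21 tested genes, or fewer where stated. In DNCB against Solvent 16 fell, 2 of the 3 that pass a mean FPKM of at least 5, and 7 of 14 without both Solvent replicate 1 and DNCB replicate 2. Leaving out 1 library at a time gave 6 to 16 lower and 0 to 1 higher. In scMSC against DNCB TMM gave 1 higher and 1 lower, DESeq2 2 higher, the mean filter 1 lower of 3, and left-out libraries 1 to 3 lower. In scivMSC against DNCB the 20 became 3 with TMM, 3 with DESeq2, 7 with limma on log2(FPKM + 1), 3 of 3 with the mean filter, 10 of 14 without the pair of libraries and 13 to 20 with left-out libraries. In scivMSC against scMSC the 13 became 1 with TMM, 2 with DESeq2, 1 with limma on log2(FPKM + 1), 0 of 3 with the mean filter, 0 with only the groups compared and 2 to 15 with left-out libraries. In scMSC against Solvent the 6 became 10 of 31 without a filter, 13 with TMM, 15 with haemoglobin left out, 15 with DESeq2, 15 with limma on log2(FPKM + 1), 2 of 3 with the mean filter, 17 with only the groups compared, 0 of 14 without the pair of libraries and 0 to 17 with left-out libraries. In scivMSC against Solvent the 20 became 3 of 3 with the mean filter, 13 of 14 without the pair of libraries and 16 to 21 with left-out libraries. The filter and fewer libraries test fewer of these genes, and the cause of the other differences was not tested.

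Replicate numbers are shared by the groups but nothing in the labels ties them to a pairing. Over 18 pairs of same-numbered libraries the correlation of deviations from the group means ran from -0.175 to 0.133, with 2 above 0.1. With the replicate number as a block, the count in scMSC against Solvent was 0, and the other counts stayed within 1.5 times their value.

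For all 31 genes without a filter, TMM gave 1 higher in DNCB against Solvent, 2 higher in scMSC against DNCB, 1 higher and 5 lower in scivMSC against DNCB and 3 lower in scivMSC against scMSC. Left-out libraries gave, without a filter, 6 to 19 lower and 0 to 1 higher in DNCB against Solvent (8 without DNCB replicate 1), 0 to 3 lower in scMSC against DNCB, 13 to 25 in scivMSC against DNCB, 2 to 20 in scivMSC against scMSC (9 without DNCB replicate 1, 4 without scivMSC replicate 2), 0 to 23 in scMSC against Solvent and 27 to 31 in scivMSC against Solvent.

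Among the pairs of gene and comparison that were followed across these fits, signs turned only for uncalled values. Other pairs were not followed. In scivMSC against DNCB with TMM, 16 of the 21 tested genes lay under the median of all tested genes, 0.04. The others had positive values, so some genes called lower there with total counts turned sign. Cd79a in scMSC against DNCB was 0.35 with TMM, 0.32 with DESeq2, 0.0246 with haemoglobin left out and 0.14 without the pair of libraries, and ran from -0.64 to 0.14 with left-out libraries. Mzb1 in scivMSC against DNCB was 1.05 with TMM, 1.04 with DESeq2, 0.0129 with haemoglobin left out or without the pair of libraries, and ran from -1.20 to 0.013 with left-out libraries. Xbp1 was 0.31 with TMM and 0.30 with DESeq2 in scMSC against Solvent (-0.42 to 0.0137 with left-out libraries) and 0.15 and 0.16 in scivMSC against Solvent. With left-out libraries Cd37 in DNCB against Solvent ran from -0.0299 to 0.68 and Ms4a1 in scMSC against DNCB from -0.23 to 0.65.

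Blood RNA was dominated by haemoglobin. The 31 genes received few counts, fewest in scivMSC, at 1556 to 3080 per library, and the cause of this was not tested. At that depth a fall beyond the limit of 12 counts per library was not detectable.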
